A study of Homo sapiens with 41 samples.

Results

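The response of A375R melanoma tumours to vemurafenib was compared between tumours in which A375R cells were mixed with drug-sensitive A375 cells and tumours of A375R cells alone. The quantity described is a difference of 2 drug effects: vemurafenib minus vehicle in mixed tumours, minus vemurafenib minus vehicle in tumours of A375R alone, on the log2(value + 1) scale. A positive difference means that the drug effect was more positive in mixed tumours, and a negative difference that it was more negative there. All 12 A375R libraries of the 41 samples in the series entered the comparison, and 13755 of 21593 listed genes had a mean value of at least 10 and were tested.

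A375R is a vemurafenib-resistant derivative of A375, a human melanoma line that carries a mutant BRAF kinase. The 4 groups were mixed tumours given vemurafenib at 75 mg/kg for 10 doses, mixed tumours given vehicle, A375R-alone tumours given the same vemurafenib course, and A375R-alone tumours given vehicle, with 3 libraries each. All tumours were xenografts, grown from cells injected under the skin of mice with matrigel. RNA bound to ribosomes was pulled down from tumour lysates through a tagged ribosomal protein, named RPL10a in the sample titles, a method called TRAP. The labels call every one of these libraries A375R and do not say which cells carried the tag in mixed tumours, so reading the mixed values as those of A375R cells is an assumption. Nothing in the labels says that the libraries of a group came from separate animals, so p-values measure only the spread between these libraries.

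Vemurafenib blocks the mutant BRAF kinase and, in sensitive melanoma cells, the MAPK signalling downstream of it. Resistant melanoma cells keep growing with the drug, and in a mixed tumour they sit beside sensitive cells that the drug does act on. Sensitive cells under treatment are known to change what they secrete, which can act on PI3K-AKT and other growth signalling of their neighbours. The comparison asks whether the resistant cells respond to the drug differently when such neighbours are present.

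Libraries held 26884205 to 42843612 reads assigned to genes, with 16440 to 17118 genes detected. The mean Pearson correlation with libraries of other groups was 0.973 for mixed vehicle replicate 1 and 0.981 to 0.987 for the other 11 libraries, so this library stood apart. The labelled melanoma type was checked on its markers: PAX3, a neural crest factor, lay between 234 and 346 normalised reads and MITF, the melanocyte master regulator, between 261 and 686. The pigment genes TYR (0 in all 12 libraries), DCT (0 to 1.15) and MLANA (0 to 2.43) were at or near 0. Among leukocyte markers PTPRC, the surface protein CD45, lay between 0 and 4.60 and CD2 at 0 in all 12 libraries, while FCER1G lay between 5.98 and 22.4, CSF1R between 23.0 and 72.9, LAPTM5 between 44.2 and 67.1 and CD68 between 3285 and 9693.

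The drug effects differed between mixed and A375R-alone tumours for 397 genes, which is 2.89% of those tested (limma, Benjamini-Hochberg adjusted p under 0.05). The difference was positive for 263 genes, 1.91% of those tested, and negative for 134, or 0.974%. It reached 2-fold for 77 of the positive genes, 0.56% of those tested, and for 88 of the negative genes, 0.64%. At an unadjusted p under 0.05 there were 2606 genes, 18.9% of those tested. Across the 13755 genes the 2 drug effects had a Pearson correlation of -0.00227 and a Spearman correlation of -0.00855; they share no library, and genes are not independent replicates.

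The count rested on several single libraries. Leaving out alone vehicle replicate 3 left 10 genes, alone vehicle replicate 1 left 15, mixed vehicle replicate 1 left 40, alone vemurafenib replicate 2 left 48 and mixed vemurafenib replicate 3 left 70. Leaving out alone vemurafenib replicate 1 left 152, mixed vemurafenib replicate 2 left 160 and alone vehicle replicate 2 left 222. Without any 1 of the other 4 libraries between 446 and 526 genes passed. The genes past the threshold in all 12 of these fits were SLC24A3, SORL1, S100A1, EPHA3, TESC, APOD, SLC26A2, CKB and CLEC2B. Of the 47 genes past the threshold that were named by rule, 4 still passed without alone vehicle replicate 3, 5 without alone vehicle replicate 1, 11 without mixed vehicle replicate 1, and 14 to 46 without any 1 of the other 9 libraries. Most list counts given here were 0 or 1 without alone vehicle replicate 1 or alone vehicle replicate 3. TESC, APOD, SLC26A2, CKB and CLEC2B were chosen for description after their values were seen.

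**Figure D1:**
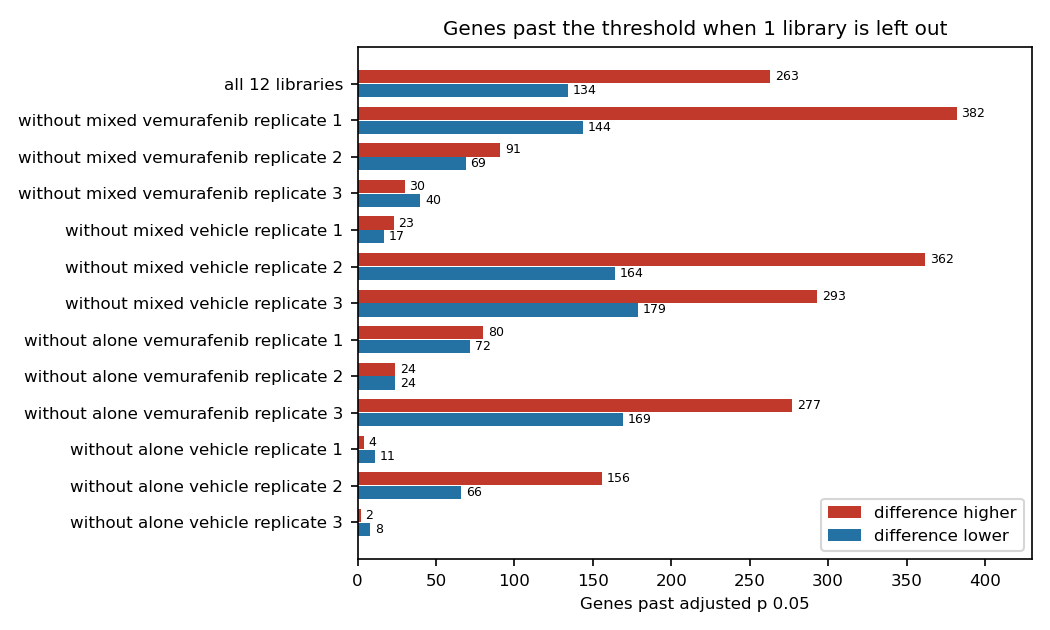
Number of genes past adjusted p 0.05 (limma, x axis) with a positive difference (red) and a negative difference (blue), for all 12 libraries and with each library left out in turn (rows). Counts with all libraries were 263 and 134, and the shortest bars, without alone vehicle replicate 3, stand at 2 and 8.

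In most of these genes the 2 drug effects had opposite signs, which selection on their difference favours. Of the 263 genes with a positive difference, 260 had drug effects of opposite sign in the 2 kinds of tumour, with a median effect of 0.40 in mixed tumours and -0.46 in A375R-alone tumours. Among the 134 genes with a negative difference, 123 had effects of opposite sign, with medians of -0.85 in mixed tumours and 0.37 in A375R-alone tumours. The direction of these medians follows from choosing the genes on their difference and is a description only. The drug effect in mixed tumours itself passed the threshold for 54 of the 263 genes and 88 of the 134, beside 3.48% of all genes tested. The effect in A375R-alone tumours passed for 37 of the 263 and 9 of the 134, beside 0.792% of all genes. Both effects passed for 2 of the 263 and 0 of the 134, and neither passed for 174 and 37. Between the 2 kinds of tumour under vehicle, mixed minus alone passed for 104 of the 263 and 90 of the 134, beside 3.3% of all genes. Under vemurafenib it passed for 13 and 2, beside 0.24%. The drug effects and the mixed minus alone values are parts of the difference on which these genes were chosen. That choice favours counts above the shares of all genes, so they too are a description only.

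**Figure D2:**
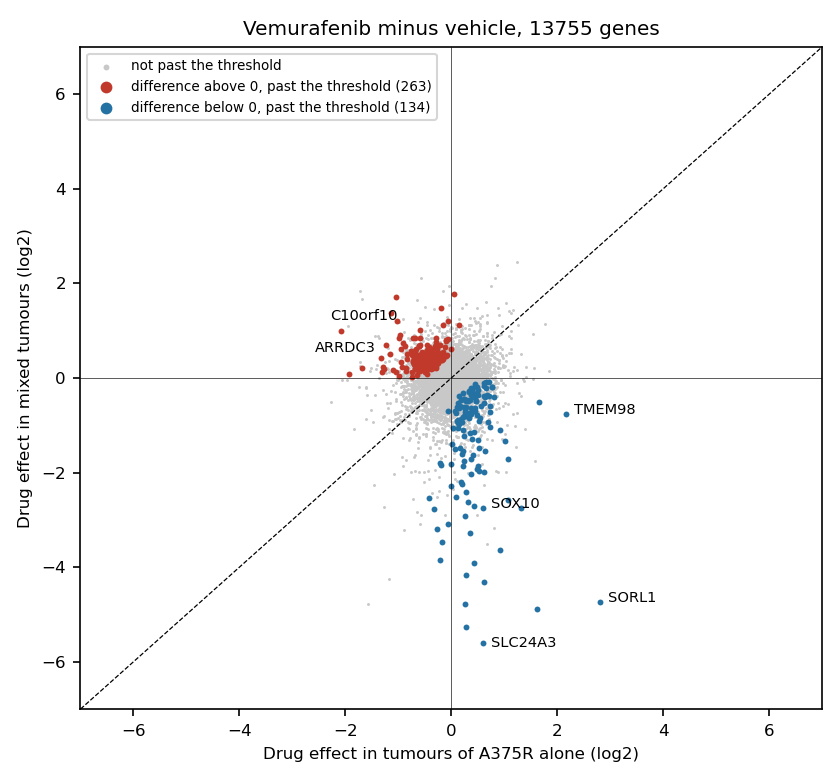
Vemurafenib minus vehicle (log2) in mixed tumours (y axis) against the same in A375R-alone tumours (x axis) for 13755 genes, with genes past the threshold for the difference in red (263, above the dashed line of equal effects) and blue (134, below it). The blue points run far down the y axis, to -5.60 for SLC24A3, while most lie near 0 on the x axis.

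The genes with the largest negative differences were highest in mixed tumours under vehicle. For 74 of the 134 genes, all 3 mixed vehicle libraries lay above all 9 others, as they did for 63 of the 88 genes with at least a 2-fold difference and for 457 of all 13755. A high mixed vehicle group makes the difference more negative, and the genes were chosen on that difference, so these counts are a description. SLC24A3, a sodium, potassium and calcium exchanger, had 4.06, 3.45 and 3.66 normalised reads in mixed vemurafenib tumours, against 377, 171 and 182 in mixed vehicle tumours. In A375R-alone tumours it had 1.54, 1.87 and 1.20 under vemurafenib, against 1.12, 0 and 1.19 under vehicle. Only the mixed vehicle libraries were high, and none of them overlapped another group. Its drug effect was -5.60 ± 0.48 in mixed and 0.60 ± 0.48 in A375R-alone tumours (log2, SE, n = 3 each), a difference of -6.19 ± 0.68 (limma, adjusted p = 0.00104).

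SORL1, a sorting receptor of endosomes, had the largest negative difference. It had 4.06, 6.90 and 8.23 normalised reads in mixed vemurafenib tumours, against 765, 108 and 84.4 in mixed vehicle tumours. It had 10.8, 129 and 19.1 in A375R-alone tumours under vemurafenib, against 8.95, 1.64 and 2.38 under vehicle. The 3 mixed vehicle libraries were above the 3 mixed vemurafenib libraries and the 3 alone vemurafenib libraries above the 3 alone vehicle libraries, with 1 library in each high group far above the other two. The difference was -7.56 ± 1.16 on the log2 scale (limma, adjusted p = 0.00928).

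SOX10, the transcription factor that sets neural crest and melanocyte identity, followed the pattern of SLC24A3. It had 91.7, 254 and 59.5 normalised reads in mixed vemurafenib tumours, against 1021, 508 and 837 in mixed vehicle tumours, and 349, 123 and 69.4 in alone vemurafenib tumours, against 129, 55.8 and 118 in alone vehicle tumours. All mixed vehicle libraries were above all others, and the other 3 groups overlapped. The difference was -3.35 ± 0.74 (limma, adjusted p = 0.0282). S100A1, a calcium-binding protein of melanocytic cells, had 70.6, 109 and 81.4 in mixed vemurafenib tumours, against 484, 277 and 332 in mixed vehicle tumours. In A375R-alone tumours S100A1 had 64.1, 60.7 and 94.5 under vemurafenib, against 54.8, 43.5 and 69.1 under vehicle, which overlapped, and the difference was -2.41 ± 0.35 (limma, adjusted p = 0.00602). Its relative S100B, also a melanocytic marker, passed as well, with a difference of -1.77 ± 0.46 (limma, adjusted p = 0.0495). Of the 15 tested genes of the pigment cell list these 3 passed, all with negative differences, beside 0.974% of all genes. In the list 13 lay below 0, beside 7246 of all 13755 genes. The list's median was -0.80, against -0.02 over all genes tested. It was -0.38 without alone vemurafenib replicate 1 and -0.44 with array weights. The list's MITF did not pass, with a difference of 0.67 ± 0.35 (limma, adjusted p = 0.307).

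EPHA3, an ephrin receptor kinase, had 53.6, 49.5 and 53.1 normalised reads in mixed vemurafenib tumours, against 352, 216 and 119.6 in mixed vehicle tumours. Its alone libraries stood at 55.6, 49.5 and 56.2 under vemurafenib, against 41.4, 30.4 and 33.4 under vehicle. The mixed vehicle libraries again lay above all others, and the small alone effect of 0.61 ± 0.29 did not pass (limma, adjusted p = 0.262), while the difference was -2.60 ± 0.40 (limma, adjusted p = 0.00928). SERPINA3, a secreted protease inhibitor of the acute phase response, had 40.6, 46.0 and 58.6 in mixed vemurafenib tumours, against 751, 238 and 179 in mixed vehicle tumours. In A375R-alone tumours SERPINA3 had 6.18, 4.67 and 10.8 under vemurafenib, against 4.48, 4.11 and 5.96 under vehicle, so both groups of mixed tumours were above both groups of A375R-alone tumours. Its difference was -3.14 ± 0.61 (limma, adjusted p = 0.0203), which did not pass with edgeR. SYTL5, which binds vesicles through the small GTPase RAB27, differed by -3.18 ± 0.56 (limma, adjusted p = 0.0196), and SOX5, a SOX10 partner in neural crest development, by -2.49 ± 0.47 (limma, adjusted p = 0.0201).

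TMEM98, a transmembrane protein, was the gene among the 12 largest negative differences whose alone effect passed. It had 146, 128 and 51.2 normalised reads in mixed vemurafenib tumours, against 266, 115 and 157 in mixed vehicle tumours, which overlapped. In A375R-alone tumours it had 123, 127 and 43.0 under vemurafenib, against 17.9, 22.2 and 16.7 under vehicle, which did not overlap. The alone effect was 2.16 ± 0.42 (limma, adjusted p = 0.0282) and the difference -2.93 ± 0.59 (limma, adjusted p = 0.0217). GAS7, LCN1, MAGEC2 and SORCS1 completed the 12 largest negative differences, at -3.04, -2.95, -2.78 and -2.43 on the log2 scale.

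**Figure D3:**
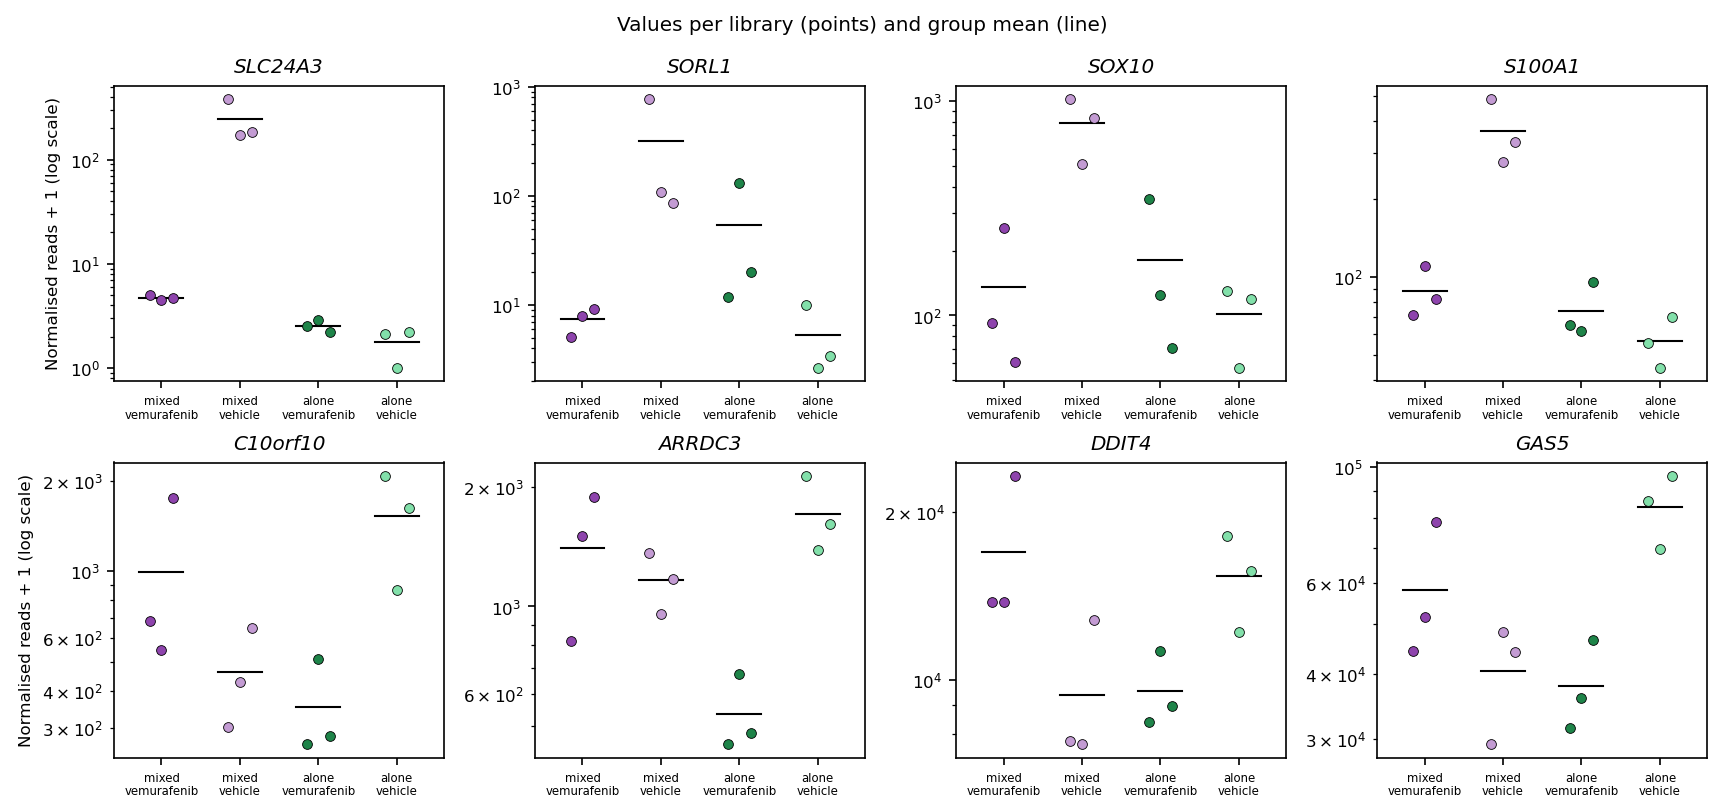
Normalised reads + 1 (log scale) of 8 genes in each of the 12 libraries (points) with the group mean (line), from left to right mixed vemurafenib, mixed vehicle, alone vemurafenib and alone vehicle. In the upper row the mixed vehicle libraries lie above all others for SLC24A3, SOX10 and S100A1; in the lower row alone vehicle libraries lie above alone vemurafenib libraries for C10orf10, ARRDC3, DDIT4 and GAS5.

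Levels in tumours of A375 cells alone were set beside these values as RPM, each gene's reads divided by all reads of its library and scaled to the same total, since the A375 tumours (4 with vemurafenib at the same dose and 4 with vehicle) were normalised separately. Over the 88 genes with a negative difference of at least 2-fold, the median level was 2.05 in mixed vemurafenib, 6.82 in mixed vehicle, 2.53 in alone vemurafenib and 1.59 in alone vehicle A375R libraries, and 16.7 in A375 tumours with vemurafenib and 40.8 in A375 tumours with vehicle. Over all genes tested the 6 medians were 15.5, 18.1, 17.3, 15.1, 21.3 and 26.3 in the same order. These genes were thus below the typical gene in all 4 A375R groups, and above it in A375 vehicle tumours. EPHA3 had 1.48, 7.63, 1.67 and 0.962 RPM in the 4 A375R groups, and 44.5 and 80.4 in the 2 groups of A375 tumours. SLC24A3 had 0.106, 8.16, 0.0479 and 0.0208, and 2.41 and 6.49 in the same order. SORL1 went the other way, with 11.1 in mixed vehicle A375R libraries but 1.37 and 0.185 in A375 tumours. The part of RNA from A375 cells in the mixed libraries was not tested; and in bulk RNA fewer cells of a type and less RNA per cell cannot be told apart.

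**Figure D4:**
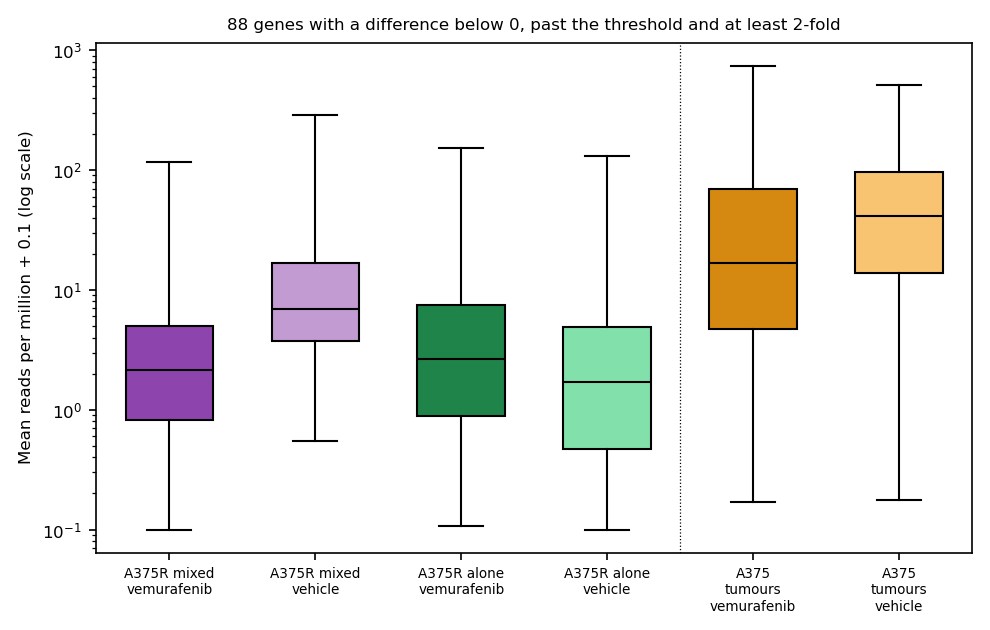
Mean RPM + 0.1 (log scale) per gene for the 88 genes with a negative difference of at least 2-fold, in the 4 A375R groups and, right of the dotted line, in A375 tumours. Boxes span the quartiles, the line is the median and whiskers reach the lowest and highest gene; the medians are 2.05, 6.82, 2.53 and 1.59 in the A375R groups and 16.7 and 40.8 in A375 tumours.

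Interferon-stimulated genes with a call also had negative differences. Of 35 tested members of the list, 5 passed with a negative difference, none with a positive one, and 30 lay below 0, beside 0.974% and 7246 of all 13755 genes; the median was -0.34, and without alone vemurafenib replicate 1 it was -0.19 with 0 calls (limma). IFIT1, which binds viral RNA, had 45.5, 33.4 and 33.9 normalised reads in mixed vemurafenib tumours, against 89.2, 94.4 and 82.7 in mixed vehicle tumours, and 40.2, 32.7 and 29.9 in alone vemurafenib tumours, against 33.6, 32.8 and 21.4 in alone vehicle tumours. MX1, an antiviral GTPase, had 104, 79.4 and 79.6, against 169, 161 and 146, in mixed tumours, and 72.6, 85.9 and 67.0, against 82.8, 60.8 and 57.2, in A375R-alone tumours (vemurafenib against vehicle in each). For both genes all mixed vehicle libraries were above all others. The differences were -1.47 ± 0.34 for IFIT1 (limma, adjusted p = 0.0351) and -1.04 ± 0.27 for MX1 (limma, adjusted p = 0.0497). BST2, the antiviral protein tetherin, differed by -2.27 ± 0.53 (limma, adjusted p = 0.0340), and DDX58, the RNA sensor RIG-I, and CMPK2 by -1.05 and -1.13. BST2 stood at 0.756 and 4.31 RPM in mixed vemurafenib and mixed vehicle tumours, and at 75.6 and 120 in A375 tumours with vemurafenib and with vehicle.

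Genes that respond to PI3K-AKT signalling were called in both directions, and some stress genes had positive differences. In most genes with a positive difference vehicle exceeded vemurafenib in A375R-alone tumours. All 3 alone vehicle libraries lay above the 3 alone vemurafenib libraries for 238 of the 263 genes, beside 1742 of all 13755 (12.7%). For 169, beside 1459 of all genes (10.6%), all mixed vemurafenib libraries lay above the mixed vehicle libraries, and for 144 both held, beside 272 (1.98%). These genes were chosen on the same difference, so the counts are a description. C10orf10 (DEPP1), a FOXO target, had the largest positive difference, 3.07 ± 0.55 (limma, adjusted p = 0.0201). It had 683, 546 and 1753 normalised reads in mixed vemurafenib tumours, against 303, 428 and 647 in mixed vehicle tumours, which overlapped. In A375R-alone tumours it had 264, 511 and 281 under vemurafenib, against 2076, 865 and 1626 under vehicle, which did not overlap.

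ARRDC3, an arrestin-like protein that acts on receptor and metabolic signalling, had 819, 1501 and 1893 normalised reads in mixed vemurafenib tumours, against 1363, 956 and 1169 in mixed vehicle tumours. In A375R-alone tumours it had 447, 672 and 478 under vemurafenib, against 2136, 1389 and 1612 under vehicle. The mixed groups overlapped and the alone groups did not. Its alone effect was -1.68 ± 0.24 (limma, adjusted p = 0.0191) and its mixed effect 0.20 ± 0.24 (limma, adjusted p = 0.696), a difference of 1.89 ± 0.34 (limma, adjusted p = 0.0201).

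DDIT4 (REDD1), which restrains mTORC1 under hypoxia and stress, had effects of opposite sign in the 2 kinds of tumour. It had 13816, 13809.8 and 23240.5 normalised reads in mixed vemurafenib tumours, against 7746, 7648 and 12796 in mixed vehicle tumours, and 8390.1, 11284 and 8974 in alone vemurafenib tumours, against 18149, 12187 and 15676 in alone vehicle tumours. Neither pair of groups overlapped. The mixed effect was 0.85 ± 0.22 (limma, adjusted p = 0.0409), the alone effect -0.68 ± 0.22 (limma, adjusted p = 0.118) and the difference 1.53 ± 0.31 (limma, adjusted p = 0.0217). TXNIP, a glucose-responsive arrestin relative, went the other way from ARRDC3, with a difference of -1.21 ± 0.31 (limma, adjusted p = 0.0469).

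In the PI3K-AKT and FOXO responsive list 25 genes were tested: ARRDC3, DDIT4 and CITED2 passed with positive differences, PIK3R1, PIK3R3 and TXNIP with negative ones, beside 1.91% and 0.974% of all genes, and the median was 0.18. Without mixed vehicle replicate 2 the median was 0.27, and without mixed vemurafenib replicate 1 it was 0.29. PIK3R1, the p85 regulatory subunit of PI3K, had 264, 217 and 253 normalised reads in mixed vemurafenib tumours, against 332, 337 and 353 in mixed vehicle tumours, and 254, 244 and 270.2 in alone vemurafenib tumours, against 171, 207 and 176 in alone vehicle tumours. Both pairs of groups were apart, in opposite directions, and the difference was -0.95 ± 0.18 (limma, adjusted p = 0.0201).

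CCL26, a chemokine outside the cytokine and chemokine list, passed at 1.93 ± 0.50 (limma, adjusted p = 0.0479). Over the 17 tested genes of that list the median was 0.06. TSLP, an epithelial cytokine, was its single called member, beside 1.91% of all genes. It had 78.7, 59.8 and 80.5 normalised reads in mixed vemurafenib tumours, against 41.0, 35.8 and 43.1 in mixed vehicle tumours, and 22.4, 24.3 and 29.9 in alone vemurafenib tumours, against 50.3, 50.1 and 52.4 in alone vehicle tumours. Both drug effects passed, with opposite sign: 0.85 ± 0.22 in mixed tumours (limma, adjusted p = 0.0423) and -0.98 ± 0.22 in A375R-alone tumours (limma, adjusted p = 0.0483). The difference was 1.82 ± 0.31 (limma, adjusted p = 0.0169). CLEC2B, a C-type lectin, was the only other gene with a positive difference whose 2 drug effects both passed, at 0.53 ± 0.10 and -0.45 ± 0.10.

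FTH1, the heavy chain of the iron store ferritin, had 31916, 40097 and 48363 normalised reads in mixed vemurafenib tumours, against 16147, 22282 and 29031 in mixed vehicle tumours, and 18199.5, 22294 and 33103 in alone vemurafenib tumours, against 38083, 37378 and 43115 in alone vehicle tumours. Neither pair overlapped, and the difference was 1.59 ± 0.31 (limma, adjusted p = 0.0203). In BHLHE40, a hypoxia- and clock-linked repressor, the alone groups were apart and the mixed groups overlapped, with a difference of 1.53 ± 0.32 (limma, adjusted p = 0.0238). EPHB6, an ephrin receptor without kinase activity, had 343, 170.3 and 179 in mixed vemurafenib tumours, against 88.3, 53.8 and 98.5 in mixed vehicle tumours, and 234, 171 and 267 in alone vemurafenib tumours, against 238, 206 and 325 in alone vehicle tumours. Here the mixed groups were apart and the alone groups overlapped, and the same held for NUPR1, a stress-induced nuclear protein. The differences were 1.68 ± 0.39 for EPHB6 (limma, adjusted p = 0.0335) and 1.72 ± 0.45 for NUPR1 (limma, adjusted p = 0.0495). CCL26, EEF1A2 and ADAMTS1 completed the 12 largest positive differences, at 1.93, 1.75 and 1.58.

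Hypoxia, heat shock and integrated stress genes lay mostly above 0. In the glycolysis and hypoxia list 28 of 30 tested genes lay above 0 and 3 passed, ADM, ALDOA and ALDOC, beside 6509 and 1.91% of all 13755 genes, with a median of 0.53 for the list. ADM, a vasodilator peptide induced by hypoxia, had 802, 829.5 and 1593 normalised reads in mixed vemurafenib tumours, against 691, 521 and 639.5 in mixed vehicle tumours, and 559.8, 789 and 546 in alone vemurafenib tumours, against 1507, 839 and 1295 in alone vehicle tumours. Neither pair overlapped, and the difference was 1.65 ± 0.34 (limma, adjusted p = 0.0235). The chaperones HSP90AB1 and HSPD1 passed among 14 heat shock genes, of which 12 lay above 0 (median 0.63). With quantile normalisation, a scaling that gives every library the same distribution of values, these medians were 0.35 and 0.41, with 1 call and 0 calls.

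The ATF4 and unfolded protein response list had 22 of 27 tested genes above 0, beside 6509 of all 13755 genes. Its calls were 2 positive and 1 negative, beside 1.91% and 0.974% of all genes. The list's median was 0.43, against 0.28 with quantile normalisation and 0.25 without mixed vemurafenib replicate 2. DDIT3, the stress factor CHOP, had 2247, 2484 and 3179 normalised reads in mixed vemurafenib tumours, against 1372, 1820.4 and 2001 in mixed vehicle tumours, and 1095, 1257 and 1759 in alone vemurafenib tumours, against 1790.0, 2437 and 2256 in alone vehicle tumours. Neither pair of groups overlapped, and the difference was 1.28 ± 0.25 (limma, adjusted p = 0.0210). SHMT2, a mitochondrial enzyme of one-carbon metabolism, passed at 0.62 ± 0.15 (limma, adjusted p = 0.0424). SLC7A11, the cystine importer and also an ATF4 target, passed in the opposite direction, at -1.56 ± 0.31 (limma, adjusted p = 0.0214); its mixed vehicle libraries, at 274, 176 and 128, lay above all others.

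The called genes with RPL, RPS, EIF or EEF symbols, which make up the translation machinery in large part, all had positive differences, and the size of these depended on the scaling. Many of their mRNAs begin with a terminal oligopyrimidine tract (TOP), a C at the first base followed by a run of C and T, through which mTORC1 and LARP1 control their loading onto ribosomes. All 35 tested members of the ribosomal protein list lay above 0, and 7 passed (RPL5, RPL10, RPL12, RPL13A, RPL30, RPS4X and RPS18), with a median of 0.85 that was 0.05 with 0 calls under quantile normalisation and 0.82 with 21 calls by edgeR. Among 81 genes with a numbered RPL or RPS symbol, a family chosen after values were seen, 23 passed with a positive difference, beside 1.91% of all genes. None passed with a negative difference, beside 0.974%, and the median was 0.84. With quantile normalisation there was 1 call and a median of 0.07. RPSA, whose symbol holds no number, also passed with a positive difference and is not counted here. The count of 23 dropped to 3 without alone vehicle replicate 2, to 10 without mixed vehicle replicate 3, to 1 without mixed vehicle replicate 1 or mixed vemurafenib replicate 2, and to 0 without alone vehicle replicate 1 or 3, alone vemurafenib replicate 1 or 2, or mixed vemurafenib replicate 3, and was 72 without mixed vehicle replicate 2; the median stayed between 0.67 and 0.99. Ribosomal protein genes have near-identical copies elsewhere in the genome, so their reads are uncertain.

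RPS18, of the small subunit, had 191309, 195522 and 216453 normalised reads in mixed vemurafenib tumours, against 105042, 182349 and 151763 in mixed vehicle tumours, and 145426, 142038 and 175775 in alone vemurafenib tumours, against 242584, 209935 and 261409 in alone vehicle tumours. Neither pair overlapped, and mixed vehicle replicate 1 was the lowest library. Ribosomal protein genes together took 25.2% to 26.7% of reads in mixed vemurafenib libraries and 19.7%, 25.4% and 23.0% in mixed vehicle replicates 1 to 3. They took 21.8% to 24.1% in alone vemurafenib libraries and 26.6% to 28.7% in alone vehicle libraries. The mixed vehicle share overlapped that of mixed vemurafenib libraries, and the alone groups did not overlap. The initiation factors moved less uniformly. Of 55 genes with an EIF symbol, a family chosen after values were seen, 9 passed with a positive difference, beside 1.91% of all genes. In this family 32 lay above and 23 below 0, beside 6509 and 7246 of all 13755 genes, and the median was 0.09. Quantile normalisation gave 5 positive and 2 negative calls. EEF2, the elongation factor that moves the ribosome along the mRNA, differed by 1.06 ± 0.27 (limma, adjusted p = 0.0469), TPT1 by 1.23 ± 0.30 (limma, adjusted p = 0.0431) and the initiation factor EIF4B by 0.85 ± 0.21 (limma, adjusted p = 0.0442).

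The host genes of small nucleolar RNAs, which are not translated into known proteins but carry TOP starts in part, held up better under another scaling. GAS5 and 12 SNHG genes were tested, a family chosen after values were seen. All 13 lay above 0, beside 6509 of all 13755 genes. Of the 13, 6 passed (GAS5, SNHG1, SNHG5, SNHG7, SNHG8 and SNHG12), beside 1.91% of all genes, and the median was 0.90. With quantile normalisation there were 6 calls and a median of 0.73. GAS5 had 44291, 51433 and 78303 normalised reads in mixed vemurafenib tumours, against 29277, 48192 and 44149.7 in mixed vehicle tumours, and 31543, 35944 and 46415 in alone vemurafenib tumours, against 86100.4, 69692 and 96245 in alone vehicle tumours. The alone vehicle libraries were the high ones, apart from alone vemurafenib libraries, and the mixed groups overlapped. Its difference was 1.66 ± 0.31 (limma, adjusted p = 0.0201). Without alone vehicle replicate 1 or replicate 3 none of the 13 passed, without alone vemurafenib replicate 2 there were 2 and without mixed vehicle replicate 1 there were 3, with medians between 0.72 and 0.93.

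The annotated starts of genes with positive differences were read to see how many begin with such a tract. Each line gives 30 bases around the RefSeq start on GRCh38.p14, 5′ to 3′ on the gene's strand, with the 15 bases before the start first; capitals mark a C at the start and the unbroken run of C and T that follows, where it holds at least 4. The first 8 passed with positive differences and were picked after their values were seen, and the last 3, of which SORL1 had a negative difference, passed without such a run and are shown for contrast.
RPS18 (chr6:33272060-33272089, plus strand): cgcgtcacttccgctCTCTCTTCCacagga
RPSA (chr3:39406705-39406734, plus strand): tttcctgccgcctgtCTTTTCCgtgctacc
EEF2 (chr19:3985449-3985478, minus strand): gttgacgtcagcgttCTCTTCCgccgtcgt
TPT1 (chr13:45341169-45341198, minus strand): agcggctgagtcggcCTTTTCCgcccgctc
EIF4B (chr12:53006441-53006470, plus strand): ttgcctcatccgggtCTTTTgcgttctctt
GNB2L1, now RACK1 (chr5:181243892-181243921, minus strand): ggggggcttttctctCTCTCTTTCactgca
SNHG5 (chr6:85678719-85678748, minus strand): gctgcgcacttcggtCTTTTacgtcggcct
C6orf48, now SNHG32 (chr6:31834901-31834930, plus strand): ctcgccattttagttCTTTTTgcgaagtgg
SORL1 (chr11:121452299-121452328, plus strand): ggcggcgccacctgcagtagcgttcgcccg
ARRDC3 (chr5:91383303-91383332, minus strand): agcttttagccgcccgtctttgtaaggaga
DDIT4 (chr10:72273909-72273938, plus strand): cgctggtgctagggcgcagcaggccaaggg

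Of the 263 genes with a positive difference 213 had a RefSeq start, and 78 of these (36.6%) began with the run, against 1104 of all 27305 starts in the reference table (4.04%), which include genes not expressed here. Among tested genes the run stood at 591 of 10770 starts (5.49%) and among those with a negative difference at 3 of 105 (2.86%). A start was found for 10770 of 13755 and 105 of 134 genes, so genes without one are not covered. No test was made, and these are counts only. The search looked on the sense strand only, for a C at the annotated start followed by at least 4 bases that are each C or T, and an annotated start can be off by bases. Outside the numbered RPL and RPS symbols and the EIF, EEF, SNHG and GAS5 symbols, 57 of 178 genes with a start held the run (32.0%). This stands beside 535 of 10638 tested genes outside them (5.03%). Of these 57 genes, 35 still passed with quantile normalisation. RPSA, a ribosomal protein gene, and C6orf48, now SNHG32, carry no such symbol here and count as outside. A run is a description of letters and not shown to be a working TOP. The sets were not matched on level. Median RPM over 262 of the 263 genes was 90.8, 78.3, 75.5 and 88.0 (mixed vemurafenib, mixed vehicle, alone vemurafenib, alone vehicle). Over all genes tested it was 15.5, 18.1, 17.3 and 15.1. In that order the top 100 genes took 38.4% to 41.5%, 31.6% to 38.0%, 33.8% to 36.6% and 40.3% to 43.5% of reads. Whether the run or the level goes with the difference was not tested. GNB2L1, the ribosomal scaffold RACK1, had 162596, 175272 and 193388 normalised reads in mixed vemurafenib tumours, against 98657, 149009 and 135245 in mixed vehicle tumours, and 127755, 138466 and 147631 in alone vemurafenib tumours, against 201843, 182390.0 and 208390.0 in alone vehicle tumours. Both pairs of groups were apart, and its difference was 1.01 ± 0.24 (limma, adjusted p = 0.0365). SNHG5 differed by 1.01 ± 0.18 (limma, adjusted p = 0.0201).

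Proliferation genes lay mostly below 0, with few calls. In the mitosis list 28 of 29 genes lay below 0, beside 7246 of all 13755 genes. The list's median was -0.41 (-0.25 without alone vemurafenib replicate 1). Both limma and edgeR called 0. At an unadjusted p under 0.05 (limma) 11 lay below 0, beside 18.9% of all genes in either direction. Of 28 replication genes 1, GINS4, passed at -0.87 ± 0.21 (limma, adjusted p = 0.0419), beside 0.974% of all genes. The median of the replication list was -0.39. MKI67, the proliferation marker Ki-67, had 1145, 914 and 758 normalised reads in mixed vemurafenib tumours, against 1435, 1189.7 and 903 in mixed vehicle tumours, which overlapped, and 1329.6, 1334 and 1022 in alone vemurafenib tumours, against 875, 831 and 819 in alone vehicle tumours, which did not. Its difference of -0.85 ± 0.23 missed the threshold (limma, adjusted p = 0.0573).

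**Figure D5:**
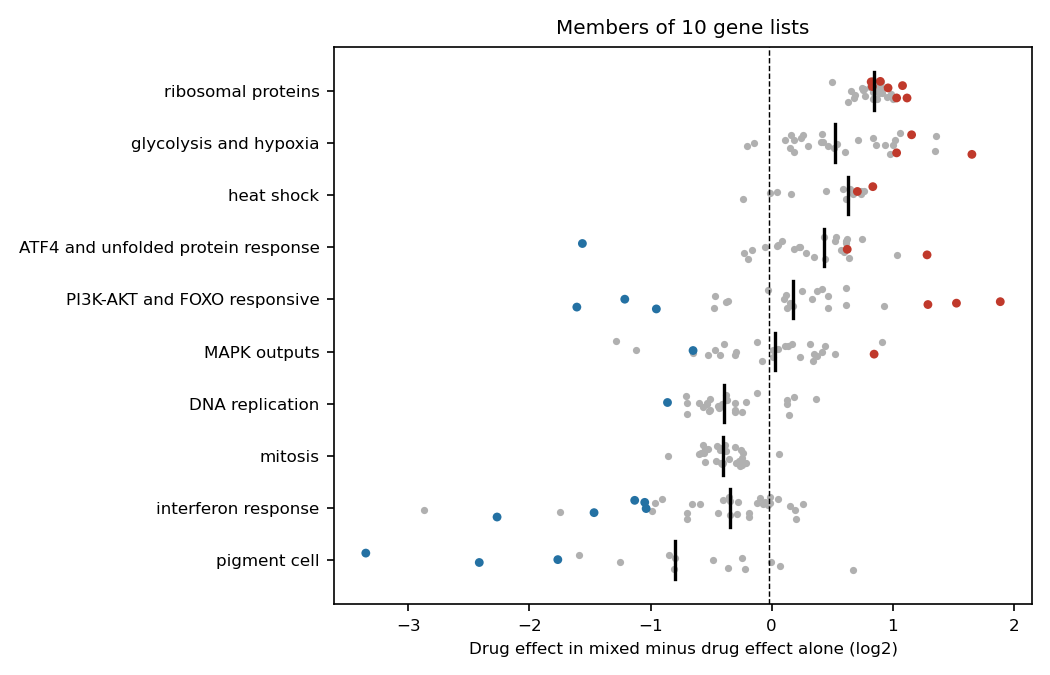
Difference of the drug effects (log2, x axis) for each tested member of 10 gene lists (rows), with members past the threshold in red (positive) or blue (negative), the list median as a black bar and the median of all genes tested, -0.02, as a dashed line. All 35 ribosomal protein genes lie above 0 and 28 of 29 mitosis genes below it.

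The outputs of the MAPK pathway, which vemurafenib acts on in sensitive cells, showed no common direction. Above 0 lay 16 of 28 tested genes, beside 6509 of all 13755 genes. DUSP5, a phosphatase of ERK, passed at 0.85 ± 0.21 (limma, adjusted p = 0.0442) and ETV1, an ETS factor, at -0.65 ± 0.16 (limma, adjusted p = 0.0456). Over all genes 1.91% passed with a positive and 0.974% with a negative difference. The list's median was 0.03, or -0.12 with quantile normalisation. DUSP6, another ERK phosphatase, had 4344, 4206 and 5717 normalised reads in mixed vemurafenib tumours, against 4047, 4741 and 4195 in mixed vehicle tumours, and 2857, 4104 and 3352 in alone vemurafenib tumours, against 5096, 4080.1 and 4287 in alone vehicle tumours. Both pairs overlapped, and its difference was 0.52 (95% interval 0.10 to 0.94) at an adjusted p of 0.169 (limma). SPRY4, a feedback inhibitor of receptor signalling, had a mixed effect that passed, -0.81 ± 0.13 (limma, adjusted p = 0.00286), and an alone effect of -0.39 ± 0.13 that did not (limma, adjusted p = 0.122). The difference between these 2 effects was -0.42 (95% interval -0.80 to -0.04) and missed the threshold (limma, adjusted p = 0.215).

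FOSL1, CCND1, AXL, IL6 and IGFBP3, genes often followed in BRAF inhibitor resistance, had differences of 0.01, -0.30, -0.11, 0.22 and 0.76 with adjusted p between 0.246 and 0.987 (limma). CKB, brain-type creatine kinase, was with CLEC2B the positive difference that passed without each library in turn. It had 2721, 2367 and 2702 normalised reads in mixed vemurafenib tumours, against 1119, 1247 and 1198 in mixed vehicle tumours, and 1615, 1631 and 1685 in alone vemurafenib tumours, against 1591, 1411 and 1436 in alone vehicle tumours. The mixed vemurafenib libraries lay above all others, and the difference was 0.97 ± 0.13 (limma, adjusted p = 0.00539).

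Most other lists had at most 1 call. Over all genes tested 1.91% passed with a positive difference and 0.974% with a negative one, so a single call is not read as a result about a list. THBS2, an angiogenesis inhibitor of the matrix, passed at -2.04 among 40 extracellular matrix genes (median -0.12), and SOX2, a stem cell factor, at -1.42 among 20 receptor kinase and dedifferentiation genes (median -0.17). The antigen presentation gene HLA-E passed at 0.67 among 20 (median -0.18), the p53 target CCNG1 at 0.76 among 18 (median 0.15), the lysosomal cholesterol carrier NPC2 at 0.79 among 25 (median 0.28), the respiratory subunit UQCRC2 at 0.56 among 28 (median 0.13) and the tropomyosin TPM2 at 0.70 among 21 actin and SRF-YAP genes (median 0.00). Among 34 growth factors and binding proteins, HBEGF, an EGF receptor ligand, passed at 0.83, IGFBP6 at 0.88 and FGF1 at -1.11 (median 0.17). The AP-1, ribosome biogenesis, NF-kB feedback, cholesterol synthesis, BCL2 family and histone lists had 0 calls with limma, with medians of 0.33, -0.01, 0.10, -0.04, 0.11 and 0.67.

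Summed leukocyte markers, which were mostly CD68, and summed fibroblast markers differed between some groups, while the sums of other cell types overlapped. Summed over the 21 leukocyte markers in the table, of which 8 were tested, levels were 5305 to 8514 normalised reads in mixed vemurafenib, 3584 to 5228 in mixed vehicle, 4002 to 6166 in alone vemurafenib and 7747 to 9949 in alone vehicle libraries. Most of this was CD68, a lysosomal protein that melanoma cells also make, which passed at 1.34 ± 0.29 (limma, adjusted p = 0.0263). Fibroblast marker sums were 3907 to 3948 in mixed vemurafenib, 1836 to 2917 in mixed vehicle, 3085 to 3888 in alone vemurafenib and 2259 to 2374 in alone vehicle libraries. COL1A1 alone had 2444 to 2772, 1026 to 1755, 2103 to 2957 and 1083 to 1324 in the same order. COL1A2, between 3.58 and 99.8, overlapped in all 4 groups, so the sums do not show a change in fibroblast content. Endothelial sums overlapped in all 4 groups, between 3084 and 4955, as did those of blood, skin, fat and muscle markers, between 3399 and 4716. The skin marker KRT10 alone had 2350 to 3479. Of the tested markers of other cells, CD68 and CFD passed with positive differences and LYZ with a negative one. Of all genes, 1.91% and 0.974% passed in these directions. The hosts were mice and the treatment of mouse reads is not stated, so the sums cannot show how many host cells were present. The part of these markers in the other results was not tested.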

How the data were processed

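RNA was sequenced from 12 A375R tumours, in 4 groups of 3 taken from the sample titles and, for the mixed kind, the growth protocol. Per the labels' protocols, ribosome-bound RNA was pulled down with GFP beads and libraries were made with a TruSeq kit, version 2, which does not mark strand, so overlapping antisense genes are uncertain. Each deposited value is a normalised signal: the authors' read count of a gene over a scaling factor of its library. Tools and builds named in the submitters' processing notes are DESeq 1.18.0, HTSeq 0.5.4, STAR 2.3.0e, mm9 and hg19, with no roles stated; the treatment of mouse reads is not stated. Dividing by the step of each library gave whole reads for 100% of values (tolerance 0.1, largest deviation 0.000274). The table also holds 2 rows that name no gene, with 0 reads. Libraries of a group differed by more than sampling noise.

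Genes with a mean of at least 10 over the 12 libraries were tested with limma 3.58.1 (R 4.3.3, mean-variance trend) on log2(value + 1), 1 coefficient per group, two-sided, Benjamini-Hochberg over 13755 genes; the threshold was 0.05. The median SE was 0.197. This scale understates the change of low genes. The script was tested on simulated data. Lists are described by counts and medians, with no set test. Members and all 30 lists (698 genes) were chosen with earlier results of these data known. Named genes were, of the called genes whose mean was at least 50 and that lie outside noncoding or pseudogene name patterns (which also remove some coding genes whose symbol ends in P and digits), the 12 largest differences in each direction, the member of each list with the smallest p per direction, and 9 fixed genes; further genes were added after their values were seen: PIK3R3, CITED2, TXNIP, IFIT1, MX1, DDX58, CMPK2, S100B, ALDOA, ALDOC, SHMT2, HSPD1 and those of the translation machinery. None of the 13 mitochondrially encoded genes passed the filter. Alternatives were pseudocounts 0.5 and 5, no filter, a filter at 50, quantile normalisation, edgeR 4.0.16 and DESeq2 1.42.0 on recovered reads, array weights, a replicate block and leaving out each library. Starts were taken from a RefSeq table (GRCh38.p14), matched by symbol; A375 tumour levels come from a separately normalised table and were not tested against A375R.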

Additional observations from a re-analysis of the deposited data

Results flagged for a closer look

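The drug effect differed between mixed and A375R-alone tumours, by the limma test of the difference itself, for 47 of the genes named by rule. Each is given as the difference in log2, followed in brackets by how many of the 12 fits that leave out 1 library kept it past adjusted p 0.05. Among the 12 largest positive differences these were C10orf10 3.07 (9), CCL26 1.93 (2), ARRDC3 1.89 (10), EEF1A2 1.75 (6), NUPR1 1.72 (2), EPHB6 1.68 (6), GAS5 1.66 (9), ADM 1.65 (9), FTH1 1.59 (7), ADAMTS1 1.58 (7), BHLHE40 1.53 (9) and DDIT4 1.53 (9). The 12 largest negative differences gave SORL1 -7.56 (12), SLC24A3 -6.19 (12), SOX10 -3.35 (5), SYTL5 -3.18 (11), SERPINA3 -3.14 (10), GAS7 -3.04 (9), LCN1 -2.95 (8), TMEM98 -2.93 (8), MAGEC2 -2.78 (5), EPHA3 -2.60 (12), SOX5 -2.49 (9) and SORCS1 -2.43 (2). List members with a positive difference were DUSP5 0.85 (3), RPL12 1.08 (5), HLA-E 0.67 (5), TSLP 1.82 (10), HBEGF 0.83 (7), TPM2 0.70 (4), UQCRC2 0.56 (3), DDIT3 1.28 (7), HSP90AB1 0.84 (5), CCNG1 0.76 (5), NPC2 0.79 (2), CD68 1.34 (6) and CFD 1.61 (1). List members with a negative difference were ETV1 -0.65 (3), GINS4 -0.87 (3), BST2 -2.27 (3), FGF1 -1.11 (5), SOX2 -1.42 (3), PIK3R1 -0.95 (10), S100A1 -2.41 (12), THBS2 -2.04 (5), SLC7A11 -1.56 (7) and LYZ -2.02 (3).

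In 4 of the 47 genes, SORL1, SLC24A3, EPHA3 and S100A1, all 12 such fits passed, and all 4 had negative differences. At the other end CFD passed in 1 fit, and CCL26, NUPR1, SORCS1 and NPC2 in 2. No group had more than 3 libraries, so single libraries were not tested as outliers.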

How the results depend on the processing

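The direction of the called genes held more often than their call. Of the 263 genes with a positive difference 254 were present with the same sign in all 12 fits without 1 library and all 9 other settings. The same held for 108 of the 134 with a negative one. Genes that a filter removed from any of these fits, such as the filter at 50, were counted with the rest. The rest are therefore not shown to have changed sign. All these fits reuse the libraries on which the genes were called, all of them or all but 1. A kept sign is therefore favoured in advance and is a description only. The numbers of genes past the threshold, in all and with positive and negative differences, were 887, 571 and 316 with DESeq2, 720, 483 and 237 with array weights, and 185, 109 and 76 with no filter on low values. With quantile normalisation 172 genes had positive differences, of which 166 were among the 263, and edgeR kept 242 of the 263 and 129 of the 134. Of the 47 called genes named by rule, 35 still passed with quantile normalisation, 44 with edgeR and 25 with no filter. Leaving out 1 library gave 10 to 526 genes in all, 2 to 382 with positive and 8 to 179 with negative differences. With pseudocounts of 0.5 and 5, a filter at 50 and edgeR the counts stayed within 1.5 times. The cause of the lower and higher counts was not tested, except that a fit without 1 library holds fewer samples.

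Same-numbered libraries of different groups had correlations of their deviations from the group means of -0.205 to 0.261, mostly under 0.1. Differently numbered libraries were not compared, so these values cannot decide whether the replicate numbers pair the samples. With the number as a block, 530 genes passed, 346 with positive and 184 with negative differences.

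Among the genes named by rule, differences changed sign for 4, all of which missed the threshold. FOSL1, at 0.01, turned to -0.28 with quantile normalisation, -0.0097 with edgeR, -0.0051 with DESeq2 and -0.055 with array weights, and ran from -0.12 to 0.12 in the fits without 1 library. In those fits CCNB2, at 0.06, ran from -0.085 to 0.185, MYH2, at -0.27, from -0.60 to 0.17, and IL6, at 0.22, from -0.00057 to 0.35. With 3 libraries a group and a median SE of 0.197, differences of low or variable genes are poorly resolved, and a gene that missed the threshold is not shown to respond alike.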
